A study of Mus musculus with 15 samples.

Results

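Transcripts of 9 hair follicle stem cell genes were followed in RNA sequencing of whole mouse skin. They were the receptor genes Lgr4, Lgr5 and Lgr6, the surface protein genes Cd34 and Cdh3, and the transcription factor genes Tbx1, Foxc1, Nfatc1 and Runx1. The members were taken by name from the deposited gene table, where each of the 9 had 1 row among 24543 genes and a value in all 15 libraries. All 9 passed the filter on low values, which asked for an RPKM of 1 or more in 3 or more libraries. RPKM divides the reads of a gene by its length and by the mapped reads of the library, so levels of different genes can be set side by side.

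Hair follicle stem cells rest in the bulge, a niche of the outer root sheath below the sebaceous gland, and are recruited at the start of each growth phase of the hair cycle. WNT signalling starts the growth phase and BMP signalling holds the cells at rest. LGR4, LGR5 and LGR6 bind R-spondins, which keep WNT receptors on the cell surface by blocking the ubiquitin ligases ZNRF3 and RNF43. CD34 marks the mouse bulge but is also made by dermal fibroblasts and blood vessel cells, so in whole skin its transcript has several sources.

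Every mouse carried K14CreERTM/LSL-SOX2. In this line a Cre recombinase made under the keratin 14 promoter, which is active in basal keratinocytes and the outer root sheath, is activated by tamoxifen and is meant to switch on a SOX2 transgene. The strain is given as 129/SvEv/C57/B16 X CD-1, and the sources used here give neither age nor sex. Skin received 5 mg/ml of tamoxifen in 200 µl of ethanol, or ethanol alone as the vehicle, and was sampled unwounded on day 0 or wounded on day 4. The title of the series asks whether SOX2 in the epidermis promotes wound healing. There were 3 unwounded tamoxifen libraries (replicates 2, 3 and 4), 4 unwounded vehicle libraries and 8 wounded libraries. Wounded set A is the 4 wounded libraries that the sample records call tamoxifen and the gene table calls vehicle. Wounded set B is the 4 that the sample records call vehicle and the gene table calls tamoxifen. The sample sheet heads the names of the records as the old ones and those of the gene table as the new ones, and the 7 unwounded libraries have the same name in all sources. Wounding and day cannot be told apart, and neither can SOX2 and tamoxifen itself, because no group had tamoxifen without the transgene.

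Depth was 39277860 to 75102345 alignments per library, at which 3 reads of a 1 kb gene are 0.0399 to 0.0764 RPKM. These floors cover counting error only, and the lowest value of any member, 0.533 RPKM, lay above them. The keratinocyte keratins were abundant in every library, with Krt14 at 993 to 5788 RPKM and Krt5 at 1341 to 2659 RPKM. Sox2 itself did not check the treatment names: it read 1.98 to 2.89 RPKM in unwounded tamoxifen skin and 1.85 to 2.57 RPKM in unwounded vehicle skin, ranges that overlapped. In the wounded libraries Sox2 read 1.87 to 3.82 RPKM in set A and 2.07 to 2.64 RPKM in set B. Where a gene changes in bulk tissue, fewer cells of a type and less RNA per cell cannot be told apart.

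In the mm10 build the members are spread over several chromosomes. Lgr4 lies on the plus strand at chr2:109917647-110014257, Lgr5 on the minus strand at chr10:115450311-115587780, and Lgr6 on the minus strand at chr1:134983301-135105276. Cd34 is on the plus strand at chr1:194938819-194961279 and Cdh3 on the plus strand at chr8:106510891-106557297. Foxc1 is on the plus strand at chr13:31806633-31812476. Tbx1, at chr16:18580979-18590671, and Runx1, at chr16:92601466-92826149, share a chromosome and a strand, the minus. All are protein-coding genes in GENCODE M21, and each value is for the whole gene. An exon of Cd34 overlaps the antisense gene Gm16897 over 148 bases, and an exon of Runx1 overlaps the antisense gene Gm26626 over 106 bases. The sources used here do not say whether the authors' counting used strand, so reads from these stretches cannot be assigned to 1 gene of each pair.

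The promoters of Tbx1 and Foxc1, the transcription factor genes with the largest rises in unwounded tamoxifen skin, and of Cd34 and Lgr6, cell surface genes that fell there, are shown as the 250 bases before the RefSeq start (build GRCm38.p6), 5′ to 3′. Capitals mark the matches to the motifs searched on both strands.
Tbx1 promoter, chr16:18590672-18590921, minus strand: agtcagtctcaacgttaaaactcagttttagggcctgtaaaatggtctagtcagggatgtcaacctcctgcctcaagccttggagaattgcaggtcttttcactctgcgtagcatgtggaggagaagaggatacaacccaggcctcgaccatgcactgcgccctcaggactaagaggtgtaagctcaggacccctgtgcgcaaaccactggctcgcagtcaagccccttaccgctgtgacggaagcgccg
Foxc1 promoter, chr13:31806396-31806645, plus strand: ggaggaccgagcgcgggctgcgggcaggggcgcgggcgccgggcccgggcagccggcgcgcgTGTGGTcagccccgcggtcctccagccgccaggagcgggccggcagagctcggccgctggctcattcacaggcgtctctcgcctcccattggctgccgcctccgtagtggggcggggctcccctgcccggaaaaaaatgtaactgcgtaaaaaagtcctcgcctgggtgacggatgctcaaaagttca
Cd34 promoter, chr1:194938571-194938820, plus strand: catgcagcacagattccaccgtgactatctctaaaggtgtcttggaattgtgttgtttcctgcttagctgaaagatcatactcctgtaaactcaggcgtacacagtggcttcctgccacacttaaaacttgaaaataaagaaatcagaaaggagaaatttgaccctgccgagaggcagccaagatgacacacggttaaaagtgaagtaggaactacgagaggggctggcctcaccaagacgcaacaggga
Lgr6 promoter, chr1:135105277-135105526, minus strand: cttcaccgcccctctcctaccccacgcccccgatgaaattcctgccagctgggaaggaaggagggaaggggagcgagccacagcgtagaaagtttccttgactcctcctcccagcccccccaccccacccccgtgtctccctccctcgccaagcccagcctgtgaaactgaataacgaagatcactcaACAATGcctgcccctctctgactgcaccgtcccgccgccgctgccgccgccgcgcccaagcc

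RefSeq windows of 300 bases, 250 before to 50 after the start, were at hand for 6 of the 9 members, 8 windows in all. The motifs were CTTTGA for TCF/LEF factors, ACAAAG for SOX factors, CATTGT for SOX2-type sites, TGTGGT for RUNX factors and TGGAAA for NFAT factors. Among 32851 RefSeq windows, 16% held the TCF/LEF letters, 18.7% the SOX letters, 12.6% the SOX2-type letters, 16.8% the RUNX letters and 21.4% the NFAT letters. The capitals in Foxc1 are a RUNX match at position -188 from the start, and those in Lgr6 a SOX2-type match, as its reverse complement, at position -62. Neither Tbx1 window, nor the Cd34 or Lgr4 window, held any of these letters. The Runx1 window nearer the annotated gene start held a pair of RUNX matches, at positions 29 and 37, and an NFAT match at position -37. The other Runx1 window held an NFAT match at position -11. These are matches of letters and say nothing of binding.

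Cd34 had the highest level and Lgr6 the lowest in each of the 4 groups, but the genes between them changed order. In unwounded vehicle skin Cd34 averaged 165 ± 25.1 RPKM (SD, n = 4), far above Foxc1 at 12.4 ± 0.785 RPKM, and the libraries did not overlap. From Foxc1 down through Nfatc1, Cdh3, Lgr4 and Tbx1, each gene overlapped the next, so the order of neighbours is not set by these libraries. Genes farther apart could be ordered. The lowest Foxc1 library, at 11.6 RPKM, was above the highest of Cdh3, Lgr4 and Tbx1, at 11.1, 9.13 and 8.46 RPKM. The lowest Nfatc1 library, at 10.04 RPKM, was above those of Lgr4 and Tbx1. Runx1 lay clear of Tbx1, overlapped Lgr5, and Lgr5 lay clear of Lgr6. In unwounded tamoxifen skin Tbx1 stood directly under Cd34 and overlapped it, at 46.1 ± 3.66 RPKM against 55.1 ± 5.29 RPKM (SD, n = 3). Cdh3, Foxc1 and Lgr4 followed, and Nfatc1 had dropped to the last place but Lgr6. In both wounded sets Cdh3 was the gene next to Cd34 and did not overlap it. The widest span over the 15 libraries belonged to Tbx1, whose highest library was 14.6 times its lowest, and the narrowest to Runx1, at 2.63 times.

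**Figure D1:**
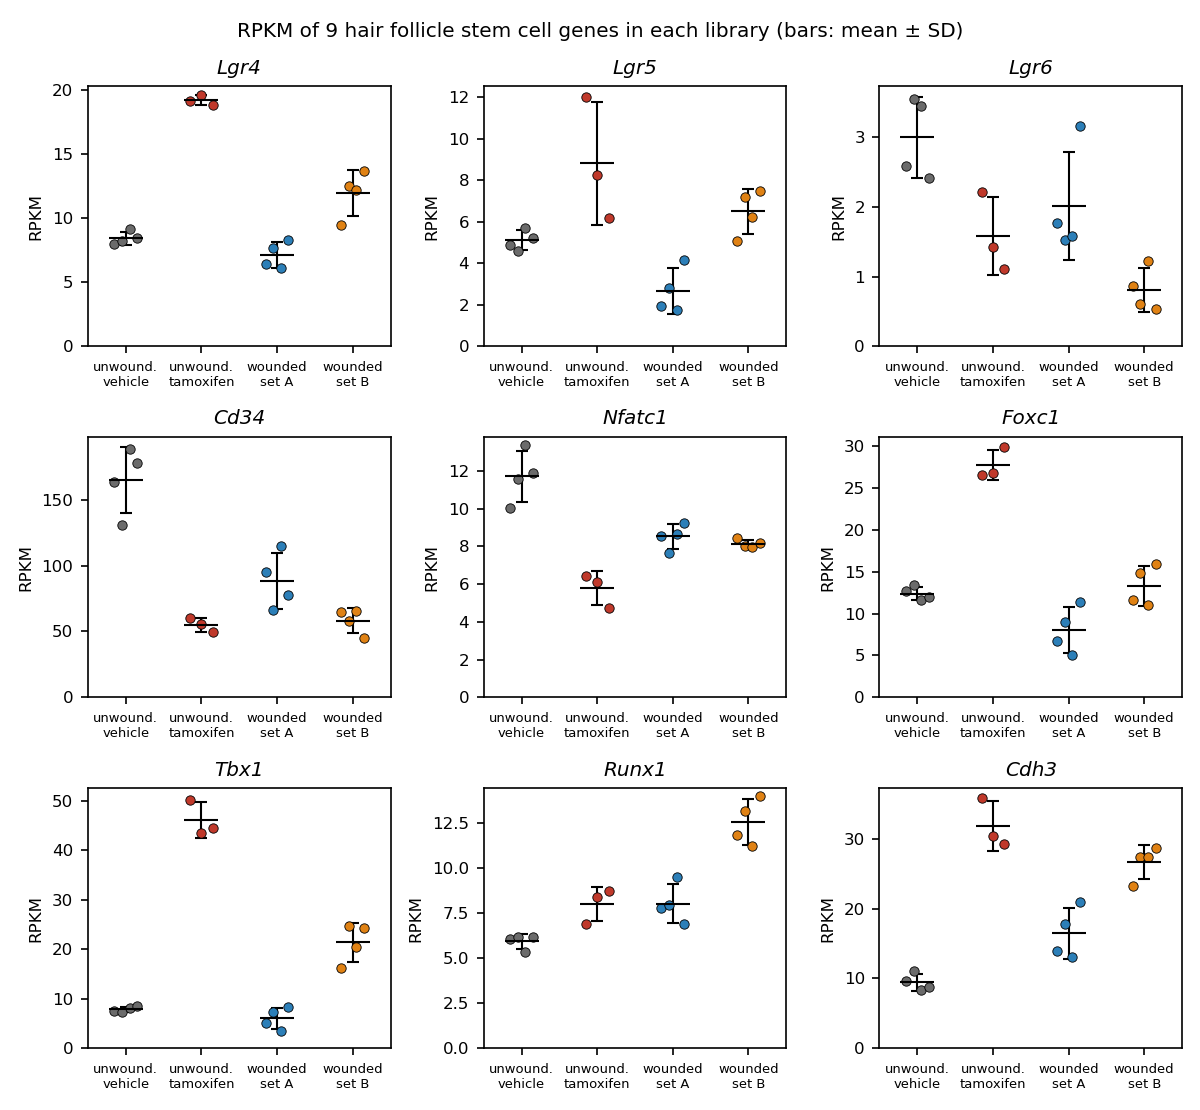
RPKM of each of the 9 genes (vertical axis, from 0) in each library (points) of the 4 groups (horizontal axis), with the mean and SD as bars. Tbx1 is at 43.5 to 50.3 RPKM in unwounded tamoxifen skin and at 16.2 to 24.8 RPKM in wounded set B, above every library of unwounded vehicle skin and wounded set A.

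Tamoxifen-treated unwounded skin differed from vehicle-treated unwounded skin in all 9 genes, 6 higher and 3 lower. Across all 13922 genes tested 69.4% passed the same threshold, 34.7% higher and 34.7% lower, so passing it was common in this comparison. The libraries of the groups did not overlap for any of the 9 genes, against 69.6% of all genes. The sizes of the changes ranged from 0.40 on the log2 scale for Runx1 to 2.47 for Tbx1. The median over the 9 genes was 0.69 and that over all genes 0.00087. Nothing says that the libraries of a group came from separate mice, so the spread behind the p-values may be a technical one.

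The 3 R-spondin receptor genes did not move together. Lgr4, the most widely expressed of them, read 19.1, 19.7 and 18.9 RPKM in tamoxifen replicates 2, 3 and 4, and 7.97, 8.19, 9.13 and 8.44 RPKM in vehicle replicates 1 to 4. All tamoxifen libraries were above all vehicle libraries, with little spread in either group. Its difference was 1.14 ± 0.12 in log2(RPKM + 0.5), a 2.21-fold rise on that scale (± limma standard error, adjusted p 1.41e-06). Lgr5, which marks cycling stem cells of the lower bulge and hair germ, read 12.02, 8.23 and 6.18 RPKM with tamoxifen and 4.89, 4.60, 5.72 and 5.24 RPKM with vehicle. The groups did not overlap, but the lowest tamoxifen library was close to the highest vehicle library. The rise was 0.69 ± 0.24 (adjusted p 0.021), and without tamoxifen replicate 2 it was 0.45, with an adjusted p of 0.123. Lgr6, which marks stem cells of the isthmus above the bulge, went the other way, at 2.20, 1.42 and 1.11 RPKM with tamoxifen and 2.58, 3.54, 3.45 and 2.41 RPKM with vehicle. Every tamoxifen library was lower, though replicate 2 came near the vehicle range. Lgr6 fell by 0.77 ± 0.24 (adjusted p 0.0111), and without tamoxifen replicate 4 it fell by 0.60, with an adjusted p of 0.0623. Within single libraries the ratio of Lgr5 to Lgr6 was 5.45 to 5.79 with tamoxifen and 1.30 to 2.17 with vehicle.

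The surface protein genes moved in opposite directions. Cd34 read 60.2, 55.6 and 49.6 RPKM with tamoxifen and 164, 131, 189 and 178 RPKM with vehicle. The highest tamoxifen library was below the lowest vehicle library by a wide margin. Cd34 fell by 1.57 ± 0.18, a 2.96-fold drop on the log2(RPKM + 0.5) scale (adjusted p 4.92e-06). Cdh3, which encodes P-cadherin, the adhesion protein of the hair germ, matrix and basal layer, read 35.9, 30.4 and 29.2 RPKM with tamoxifen and 9.62, 11.1, 8.30 and 8.81 RPKM with vehicle. The groups were far apart, and the difference was 1.70 ± 0.15 (adjusted p 3.39e-07), and 3.16% of the genes tested had a larger rise.

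The fall of Cd34 stood beside lower levels of markers of other cell types known to make it. All 10 endothelial markers were lower with tamoxifen, with a summed level of 44.3 to 51.6 RPKM against 93.5 to 101 RPKM, and Pecam1 fell by 1.05 ± 0.11 (adjusted p 2.69e-06). Of 10 fibroblast markers 8 were lower and none higher, with sums of 1764 to 3965 RPKM against 5216 to 9561 RPKM, and Pdgfra fell by 2.02 ± 0.16 (adjusted p 1.46e-07). None of these markers was at 0 in all libraries of a group. The ratio of Cd34 to Pecam1 was 3.63 to 3.94 with tamoxifen and 4.13 to 6.27 with vehicle, and that of Cd34 to Pdgfra was 7.51 to 11.1 with tamoxifen and 6.003 to 6.52 with vehicle. The ratio of Cd34 to Dcn, another fibroblast marker, was 0.119 to 0.162 with tamoxifen and 0.175 to 0.205 with vehicle. Cd34 was thus lower relative to Pecam1 and Dcn and higher relative to Pdgfra, so the direction against fibroblast genes depended on the gene. The part of either cell type in the fall of Cd34 was not tested.

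Of the 4 transcription factor genes, 3 rose and Nfatc1 fell. Tbx1, a T-box factor that sustains the renewal of bulge stem cells over repeated hair cycles, read 50.3, 43.5 and 44.5 RPKM with tamoxifen and 7.56, 7.37, 8.15 and 8.46 RPKM with vehicle. No tamoxifen library came near the vehicle range. The difference, 2.47 ± 0.22 or 5.55-fold (adjusted p 4.37e-07), was a rise that 1.91% of the genes tested exceeded. Foxc1, a forkhead factor that holds activated bulge cells in check, read 26.6, 26.8 and 29.9 RPKM with tamoxifen and 12.7, 13.4, 11.6 and 11.9 RPKM with vehicle. The groups were again apart, by 1.13 ± 0.20 (adjusted p 0.000197). Runx1, which promotes the entry of bulge cells into growth, showed the smallest change of the 9. It read 6.91, 8.41 and 8.71 RPKM with tamoxifen and 6.07, 6.19, 5.33 and 6.18 RPKM with vehicle, a rise of 0.40 ± 0.11 (adjusted p 0.00494). Nfatc1, the calcineurin-dependent factor that keeps bulge cells quiescent, read 6.45, 6.13 and 4.74 RPKM with tamoxifen and 10.04, 11.6, 13.4 and 11.9 RPKM with vehicle. All tamoxifen libraries were lower, and the fall was 0.96 ± 0.10 (adjusted p 2.25e-06).

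Genes of the growing hair were far higher in the same tamoxifen libraries. All 11 hair shaft and root sheath keratins rose, with a median difference of 9.55, and their summed level was 14256 to 20489 RPKM against 19.6 to 30.5 RPKM. Of 11 hair matrix and germ genes tested, 10 rose and none fell, with a sum of 477 to 550 RPKM against 48.8 to 58.9 RPKM. Foxn1, a regulator of hair differentiation, rose by 4.11 ± 0.24 (adjusted p 2.14e-08). All 8 cell cycle markers and all 5 melanocyte markers rose as well. Whether the share of hair matrix cells bore on the rises of Lgr4, Lgr5, Tbx1, Foxc1 or Cdh3 was not tested.

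**Figure D2:**
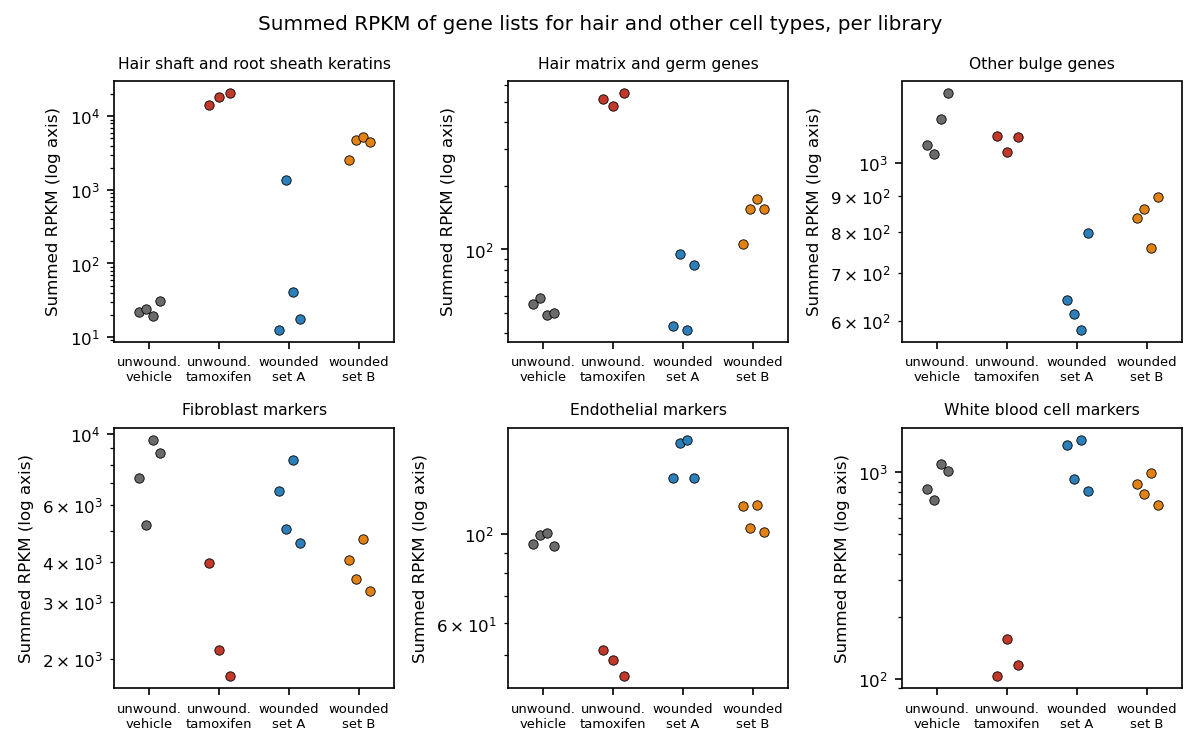
Summed RPKM (vertical log axes) of 6 gene lists in each library (points) of the 4 groups (horizontal axes). The hair keratin sum is 14256 to 20489 RPKM in unwounded tamoxifen skin, 2511 to 5246 RPKM in wounded set B 19.6 to 30.5 RPKM in unwounded vehicle skin and 12.5 to 41.3 RPKM in set A, except for set A replicate 2 at 1380 RPKM.

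Few other bulge genes fell as Cd34 and Nfatc1 did, but not all of them rose. Of 18 tested, 9 rose and 1 fell with tamoxifen, with a median of 0.21, and the others passed in neither direction. Sox9, a factor of the outer root sheath and its stem cells, went from 13.2 ± 0.411 RPKM (SD, n = 4) to 43.9 ± 4.40 RPKM (SD, n = 3), a rise of 1.70 ± 0.20 (adjusted p 4.40e-06). The summed level of the list overlapped between the groups, at 1038 to 1094 RPKM with tamoxifen and 1030 to 1255 RPKM with vehicle. Basal keratinocyte markers fell in 5 of 8 and rose in none. Of the outer root sheath and companion layer genes, 4 of 7 rose and 2 fell. Among the remaining lists, white blood cell markers fell in 10 of 10, lymphatic markers in 4 of 4, mast cell markers in 6 of 7 with 1 higher, skeletal muscle markers in 6 of 7, and adipocyte markers in 3 of 6 with 1 higher. Dermal papilla markers were mixed, with 2 higher and 3 lower of 7.

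In wounded skin, set B differed from set A in 8 of the 9 genes, 6 higher and 2 lower. Across all genes 31.1% passed, 15.5% higher and 15.6% lower. The libraries of the sets did not overlap for 7 of the 9 genes, against 28.3% of all genes. Which set had tamoxifen depends on the source: by the gene table the differences below are tamoxifen minus vehicle, and by the sample records they are vehicle minus tamoxifen.

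Among the receptor genes, Lgr4 and Lgr5 were again the higher ones and Lgr6 the lower. Lgr4 read 9.44, 12.5, 12.2 and 13.7 RPKM in set B replicates 1 to 4 and 6.43, 7.69, 6.14 and 8.33 RPKM in set A. The sets were separate, by 0.70 ± 0.11 (adjusted p 0.00035). Lgr5 read 5.07, 7.21, 6.24 and 7.501 RPKM in set B and 1.93, 2.82, 1.76 and 4.17 RPKM in set A. Set A replicate 4 stood closest to set B, and the difference was 1.19 ± 0.22 (adjusted p 0.00139). Lgr6 read 0.863, 0.613, 1.22 and 0.533 RPKM in set B and 1.77, 1.53, 1.58 and 3.16 RPKM in set A. Here set A replicate 4 stood far above the rest of its set. Lgr6 was lower in set B by a log2 difference of -0.92 ± 0.22 (adjusted p 0.00638). The ratio of Lgr5 to Lgr6 within a library was 5.10 to 14.1 in set B and 1.09 to 1.84 in set A.

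Cd34 read 64.4, 57.6, 65.7 and 45.0 RPKM in set B and 95.2, 66.0, 115 and 77.5 RPKM in set A. The sets just failed to overlap, the highest set B library lying right below the lowest set A library. The log2 difference was -0.58 ± 0.17 (adjusted p 0.018), and the call was lost without set A replicate 1 or 3, without set B replicate 4, or with only these sets in the model, at adjusted p-values of 0.0535, 0.0563, 0.0641 and 0.0513. Endothelial markers were lower in set B in 8 of 10 and fibroblast markers in 4 of 10, none higher in either list, with sums of 101 to 118 RPKM against 138 to 171 RPKM and of 3257 to 4710 RPKM against 4593 to 8262 RPKM. The ratio of Cd34 to Pecam1 was 1.38 to 1.82 in set B and 1.15 to 2.08 in set A, so these ranges overlapped. The ratios to Pdgfra, 2.51 to 3.49 and 2.13 to 3.02, and to Dcn, 0.101 to 0.135 and 0.0896 to 0.143, overlapped as well. The part of these cell types in the Cd34 difference was not tested. Cdh3 read 23.2, 27.4, 27.4 and 28.7 RPKM in set B and 13.99, 17.7, 13.1 and 20.99 RPKM in set A. All of set B was higher, by 0.70 ± 0.14 (adjusted p 0.0017).

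The transcription factors were led again by Tbx1, at 16.2, 24.8, 20.4 and 24.3 RPKM in set B and 5.12, 7.26, 3.45 and 8.31 RPKM in set A. The sets were far apart, by 1.79 ± 0.20 (adjusted p 5.23e-05), and 1.31% of all genes tested were higher in set B by more than this. Runx1 read 11.8, 13.1, 11.2 and 14.004 RPKM in set B and 7.81, 7.93, 9.47 and 6.90 RPKM in set A. It too separated the sets, by 0.62 ± 0.10 (adjusted p 0.00052). Foxc1 read 11.6, 14.9, 10.99 and 15.9 RPKM in set B and 6.70, 9.02, 5.10 and 11.3 RPKM in set A. Set A replicate 4 fell inside the range of set B, and the difference of 0.74 ± 0.19 passed the test (adjusted p 0.00845). Nfatc1 read 8.44, 8.02, 7.96 and 8.17 RPKM in set B and 8.55, 7.64, 8.68 and 9.25 RPKM in set A. These ranges overlapped and the difference was -0.06 ± 0.10 (adjusted p 0.673), the only member that missed the threshold.

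**Figure D3:**
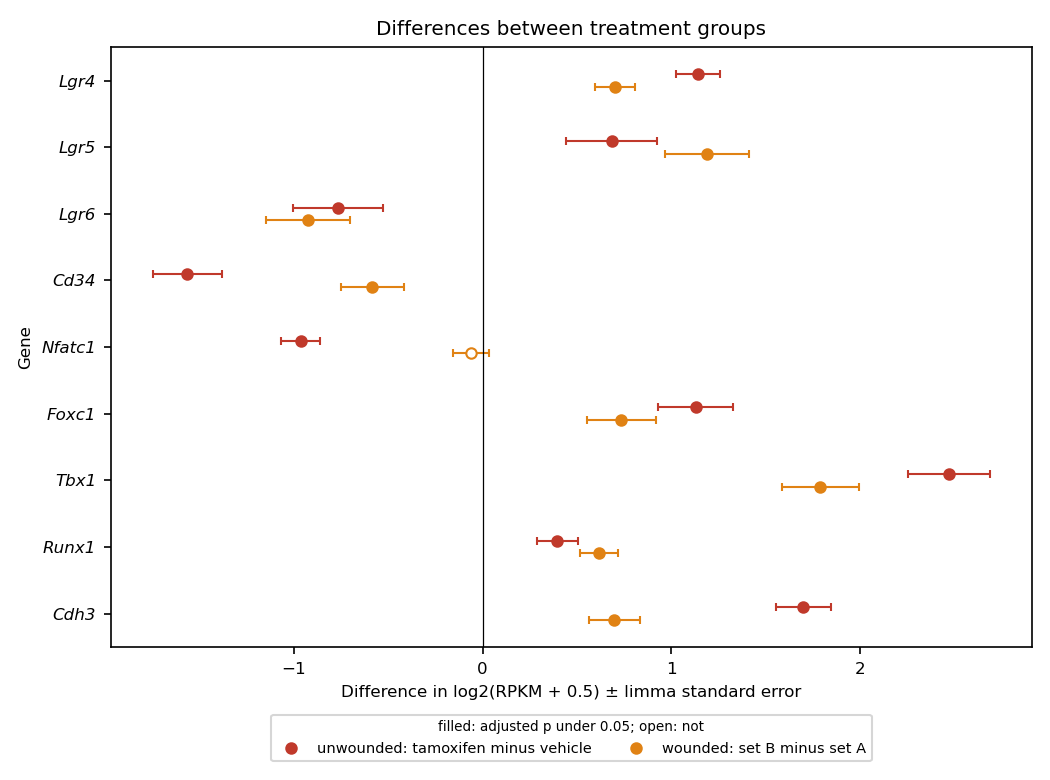
Difference in log2(RPKM + 0.5) (horizontal axis) for each of the 9 genes (vertical axis) between tamoxifen and vehicle in unwounded skin and between wounded sets B and A, with limma standard errors as bars. Filled points passed an adjusted p of 0.05. Tbx1 is farthest to the right in both comparisons, at 2.47 and 1.79, and Nfatc1 in the wounded sets is the only open point, at -0.06.

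Genes of the hair were also higher in set B. All 11 hair keratins rose, with a median of 5.56, and 8 of 11 hair matrix and germ genes rose and none fell, with sums of 106 to 174 RPKM in set B and 41.5 to 94.8 RPKM in set A. Set A was uneven in this respect: its replicate 2 had a hair keratin sum of 1380 RPKM, and its other libraries had 12.5 to 41.3 RPKM. Other bulge genes were higher in 7 of 18 and lower in none, with Sox9 at 34.4 ± 9.40 RPKM in set B and 11.3 ± 2.71 RPKM in set A (SD, n = 4). Basal keratinocyte markers were higher in 5 of 8 and outer root sheath genes in 4 of 7, none lower in either. White blood cell markers were lower in 5 of 10, mast cell markers in 4 of 7 and lymphatic markers in 3 of 4. Of the adipocyte markers 1 of 6 was lower. Dermal papilla markers counted 1 higher and 2 lower of 7. Unlike in unwounded tamoxifen skin, none of the 5 melanocyte, 8 cell cycle or 7 skeletal muscle markers passed in either direction.

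How the 9 genes differed between wounded and unwounded skin depends on which names are used, because each wounded set can be set against either unwounded group. The comparisons below share groups with each other and with those above. By the names of the gene table, wounding in vehicle skin is set A against unwounded vehicle skin, where 6 of the 9 genes passed, 2 higher and 4 lower, against 39.8% of all genes, 20.4% higher and 19.4% lower. The same 6 genes had no overlap between groups, as did 35.8% of all genes. Cdh3 rose by 0.75 ± 0.14 (adjusted p 0.000679) and Runx1 by 0.40 ± 0.10 (adjusted p 0.00632). Cd34 fell by 0.92 ± 0.17 (adjusted p 0.000825), Lgr5 by 0.88 ± 0.22 (adjusted p 0.00661), Foxc1 by 0.65 ± 0.19 (adjusted p 0.013) and Nfatc1 by 0.43 ± 0.10 (adjusted p 0.00286). Lgr4 at -0.23, Lgr6 at -0.51 and Tbx1 at -0.42 had adjusted p-values of 0.102, 0.0856 and 0.114. Without set A replicate 4 these values were -0.31, -0.70 and -0.59 and all passed, with adjusted p-values of 0.0356, 0.0129 and 0.0246, and without set B replicate 1 Lgr4 passed at 0.0458. With library weights all 3 passed too, at adjusted p-values of 0.00984, 0.0156 and 0.00688. In tamoxifen skin, by the same names, wounding is set B against unwounded tamoxifen skin, where 6 of 9 passed, 2 higher and 4 lower, against 54.8% of all genes, 25.9% higher and 28.9% lower. The libraries did not overlap for 6 members, against 58% of all genes. These were not the same 6: Cdh3 had no overlap but did not pass, and Lgr6 passed but overlapped. Runx1 rose by 0.62 ± 0.11 (adjusted p 0.000317) and Nfatc1 by 0.47 ± 0.10 (adjusted p 0.00162). Tbx1 fell by 1.11 ± 0.22 (adjusted p 0.00082), Foxc1 by 1.04 ± 0.20 (adjusted p 0.000635), Lgr4 by 0.67 ± 0.12 (adjusted p 0.000277) and Lgr6 by 0.66 ± 0.24 (adjusted p 0.0302). The Lgr6 call was lost without tamoxifen replicate 2 or 3 or set B replicate 2 or 4, at adjusted p-values of 0.148, 0.0527, 0.0735 and 0.0809, and with the replicate number as a block, at 0.0654. Lgr5, Cdh3 and Cd34, at -0.38, -0.25 and 0.07, had adjusted p-values of 0.201, 0.164 and 0.78.

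By the sample records, wounding in vehicle skin is set B against unwounded vehicle skin, where 7 of 9 passed, 4 higher and 3 lower, against 59.2% of all genes, 30.7% higher and 28.6% lower. There was no overlap between groups for 7 members and 61.1% of all genes. Cdh3 was higher by 1.45 ± 0.14, Tbx1 by 1.37 ± 0.20, Runx1 by 1.01 ± 0.10 and Lgr4 by 0.47 ± 0.11, with adjusted p-values of 1.39e-06, 6.54e-05, 2.24e-06 and 0.00191. Cd34 fell by 1.501 ± 0.17, Lgr6 by 1.43 ± 0.22 and Nfatc1 by 0.49 ± 0.10, with adjusted p-values of 6.60e-06, 9.41e-05 and 0.000582. Lgr5 at 0.31 and Foxc1 at 0.09 had adjusted p-values of 0.246 and 0.705. Lgr5 passed with library weights, at 0.38 (adjusted p 0.0195), and with only the groups compared in the model (adjusted p 0.0428). Wounding in tamoxifen skin is, by the records, set A against unwounded tamoxifen skin, where 7 of 9 passed, 2 higher and 5 lower, against 65.4% of all genes, 31.3% higher and 34.1% lower. For 7 members the groups had no overlap, against 59.1% of all genes. Tbx1 fell by 2.90 ± 0.22, Foxc1 by 1.78 ± 0.20, Lgr5 by 1.57 ± 0.24, Lgr4 by 1.38 ± 0.12 and Cdh3 by 0.95 ± 0.15, with adjusted p-values of 1.05e-07, 3.44e-06, 6.27e-05, 2.62e-07 and 6.34e-05. Cd34 and Nfatc1 were higher by 0.65 ± 0.18 and 0.53 ± 0.10, with adjusted p-values of 0.00641 and 0.000436. Lgr6 at 0.26 and Runx1 at 0.0012 had adjusted p-values of 0.356 and 0.993. Under either set of names Nfatc1 was lower after wounding in vehicle skin and higher after wounding in tamoxifen skin. Its means in sets A and B, 8.53 and 8.15 RPKM, both lay between those of unwounded vehicle and tamoxifen skin, 11.7 and 5.77 RPKM. The pattern follows from these levels under any naming and is not a separate result.

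**Figure D4:**
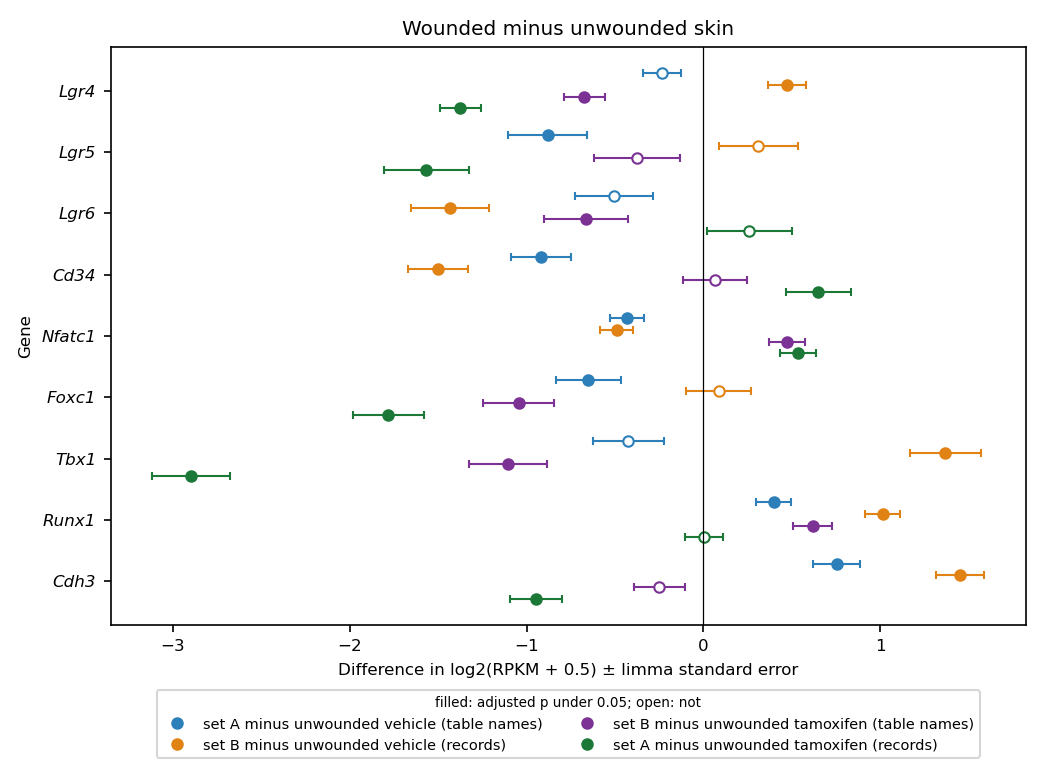
Difference in log2(RPKM + 0.5) between wounded and unwounded skin (horizontal axis) for each of the 9 genes (vertical axis) in the 4 pairings of a wounded set with an unwounded group, with limma standard errors as bars. Filled points passed an adjusted p of 0.05. Tbx1 runs from -2.90 for set A against tamoxifen skin to 1.37 for set B against vehicle skin, and both Nfatc1 values against vehicle skin are negative and both against tamoxifen skin positive.

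Whether the difference between wounded and unwounded skin itself differed between tamoxifen and vehicle was tested as an interaction. By the gene table's names 4 of the 9 genes passed, 2 positive and 2 negative, against 40% of all genes, 19.7% positive and 20.2% negative. A positive value means that the wounded skin was higher, relative to unwounded skin, with tamoxifen than with vehicle. Cd34 differed by 0.98 ± 0.25 (adjusted p 0.00718) and Nfatc1 by 0.90 ± 0.14 (adjusted p 0.000348). Cdh3 differed by -1.002 ± 0.20 (adjusted p 0.00167) and Lgr4 by -0.44 ± 0.16 (adjusted p 0.0395). The Lgr4 call was lost when any of 10 libraries was left out (tamoxifen replicates 2, 3 and 4, vehicle replicates 1, 2 and 4, set A replicates 2 and 4, and set B replicates 1 and 3), at adjusted p-values of 0.0517 to 0.0781, and with no filter on low values, at 0.0587. Without set A replicate 3, Foxc1 and Tbx1 passed, at -0.58 and -0.90 with adjusted p-values of 0.0499 and 0.00653. With all libraries, Tbx1 at -0.68, Foxc1 at -0.39, Lgr5 at 0.51, Runx1 at 0.22 and Lgr6 at -0.16 did not pass, with adjusted p-values of 0.084, 0.263, 0.234, 0.25 and 0.723. With library weights Lgr5 passed, at 0.90 (adjusted p 0.00377). By the sample records all 9 passed, 3 positive and 6 negative, against 68.5% of all genes, 33.9% positive and 34.6% negative. The values ran from -4.27 ± 0.30 for Tbx1 to 2.15 ± 0.25 for Cd34. By definition each is minus the sum of the unwounded tamoxifen difference and the difference of set B from set A. Those had the same sign for all 9 genes, so these interactions follow from them and are not a separate result. The interactions by the gene table's names are built from the same differences, as that of set B from set A minus the unwounded one. They test whether these differ and add no further data. For Nfatc1 the difference of set B from set A was -0.06 and the unwounded one -0.96.

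The R-spondin genes, the ligase genes Rnf43 and Znrf3 and the WNT co-receptor genes Lrp5 and Lrp6 were read beside the LGR receptors. With tamoxifen in unwounded skin, 5 of 7 tested rose and 1 fell, with a median of 0.62. Across all genes 34.7% rose and 34.7% fell in this comparison. The ligase genes rose by 1.01 and 0.91, and the ligand Rspo3, from 1.24 ± 0.0695 RPKM (SD, n = 4) to 2.43 ± 0.307 RPKM (SD, n = 3), by 0.75. The ligand Rspo1 fell by 0.53, from 9.49 ± 0.389 RPKM to 6.53 ± 1.55 RPKM, so the R-spondins did not share a direction. Lrp6 rose by 0.20, and Lrp5, also at 0.20, did not pass (adjusted p 0.117). In the wounded sets none was higher in set B and only Rspo3 was lower, by a difference of -0.43. Across all genes 15.5% were higher in set B and 15.6% lower. Against unwounded tamoxifen skin, 6 of 7 were lower in set B and 6 of 7 in set A, beside 28.9% and 34.1% of all genes.

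WNT target genes were mostly higher in unwounded tamoxifen skin. Of 8 tested, 7 rose against vehicle and none fell, with a median of 1.13. Across all genes 34.7% rose and 34.7% fell. Lef1, the nuclear partner of beta-catenin in the hair matrix, went from 2.27 ± 0.107 RPKM to 27.5 ± 6.45 RPKM, a difference of 3.31, and the feedback inhibitor Nkd2 rose by 2.04. In set B against set A, Lef1, Notum and Nkd2 rose, by 1.37, 1.16 and 0.86, and the other 5 did not pass. Across all genes 15.5% were higher in set B. All 8 were lower in set B than in unwounded tamoxifen skin, and in set A than in unwounded vehicle skin 4 were lower and none higher. Across all genes 28.9% were lower in the former comparison, and 19.4% lower and 20.4% higher in the latter.

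The list for BMP signalling, which holds bulge cells at rest, included ligands, the target Id3 and the antagonist Grem1. With tamoxifen in unwounded skin 7 of 11 rose and Grem1 fell, where 34.7% of all genes rose and 34.7% fell. In whole skin these changes cannot be placed in the bulge. The ligands Bmp6, Bmp2 and Bmp4 rose by 1.43, 1.14 and 1.05, and the target Id3 by 1.51. In set B against set A only Bmpr1a and Bmp6 passed, higher by 0.65 and 0.55, where 31.1% of all genes passed. Set B was below unwounded tamoxifen skin in 9 of 11, beside 28.9% of all genes.

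**Figure D5:**
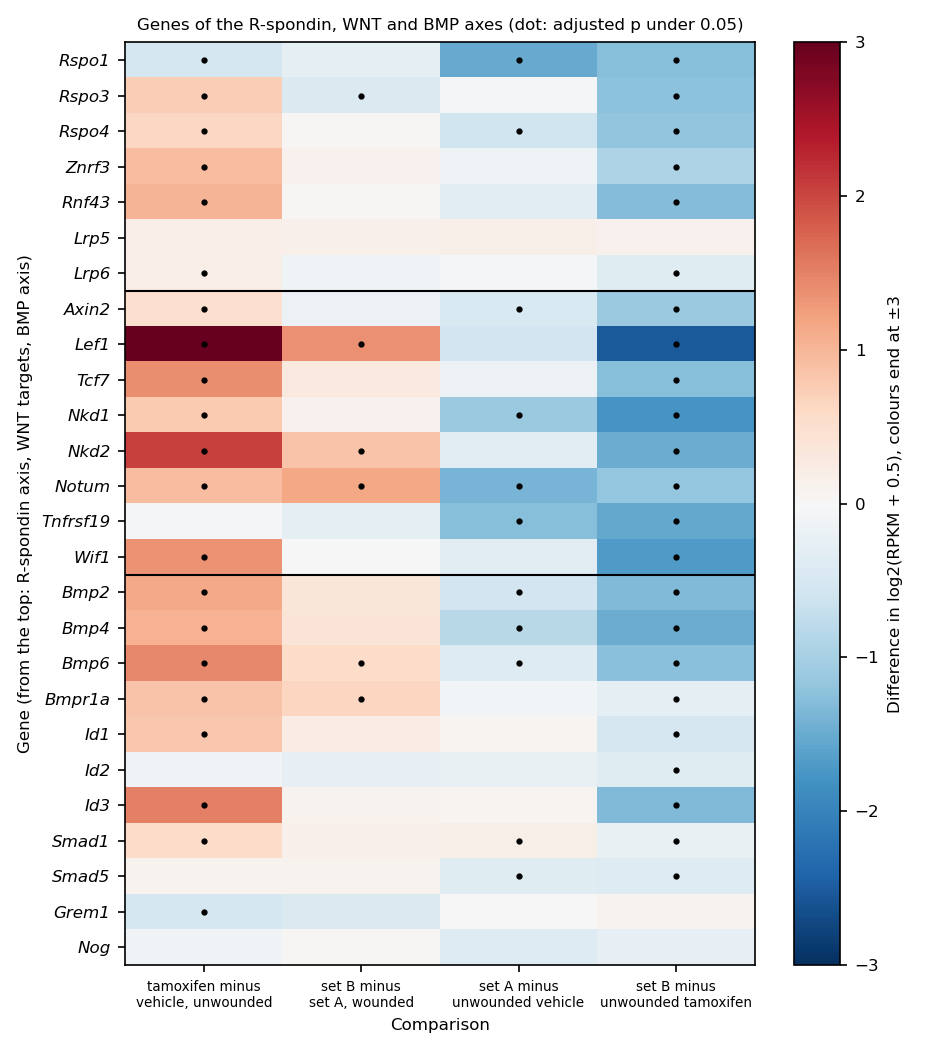
Difference in log2(RPKM + 0.5) (colour, cut at 3 on either side) of genes of the R-spondin axis, WNT targets and the BMP axis (vertical axis) in 4 comparisons (horizontal axis), with dots where the adjusted p was under 0.05. The unwounded tamoxifen column is mostly red, with Lef1 at 3.31, and the column of set B against unwounded tamoxifen skin is mostly blue, with Lef1 at -2.52.

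Relatives of the transcription factors moved in both directions. Of 8 NFAT and calcineurin genes, 4 fell and 1 rose with tamoxifen in unwounded skin. Across all genes 34.7% fell and 34.7% rose, so passing was common in this comparison. Nfatc2 fell by 1.26, Nfatc4 by 0.73 and the catalytic subunit gene Ppp3ca by 0.69, whereas the calcineurin regulator Rcan1 rose by 0.69. Nfatc3 read 9.05 ± 1.30 RPKM with tamoxifen and 8.74 ± 0.482 RPKM with vehicle, a difference of 0.04. In set B against set A only Nfatc2, at -0.37, and Rcan1, at 0.46, passed. Across all genes 15.5% were higher in set B and 15.6% lower. In the RUNX family, Runx2 rose by 0.35 and Runx3 fell by 0.67 with tamoxifen, and their shared partner Cbfb did not pass, at 0.08. The wounded sets showed the same pair of directions, with Runx2 at 0.30 and Runx3 at -0.57. Among 5 forkhead and T-box relatives tested, Foxp1 rose by 0.37, and Tbx15 and Tbx3 fell by 1.17 and 0.66. Of the cadherins and catenins, 5 of 9 rose and 4 fell with tamoxifen in unwounded skin. Beta-catenin (Ctnnb1) rose by 0.91 and E-cadherin (Cdh1) by 0.48, and Cdh5, the cadherin of blood vessels, fell by 0.78. In set B against set A, 5 of 9 were higher, Ctnnb1 and Cdh1 by 0.53 and 0.61, and only Cdh5 was lower, by a difference of -0.33.

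Within the groups, single libraries stood high or low for several members at once. Set A replicate 4 had the highest value of its set for 7 of the 9 genes, and set A replicate 3 the lowest for 5. Set A replicate 4 was also the shallowest library of the series, at 39277860 alignments against 52228305 to 67782635 in the rest of its set. Whether depth bore on its values was not tested. In unwounded tamoxifen skin, replicate 2 was the highest for 6 genes and replicate 4 the lowest for 6. The relative spread was smallest for Lgr4 in unwounded tamoxifen skin, with an SD of 2.08% of the mean, and largest for Lgr5 in set A, at 41.4%.

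Genes with the profile nearest to each member over the 15 libraries were named by the smallest root mean square difference of centred log2(RPKM + 0.5), as a description. Lgr4 was closest to Ptpn13, at 0.0847, then to Ltbp3 and Celsr1. Ptpn13 averaged 18.2 ± 0.962 RPKM in unwounded tamoxifen skin and 8.25 ± 0.872 RPKM in unwounded vehicle skin. Foxc1 was closest to Anxa9, at 0.0984, followed by the tight junction gene Ocln. Nfatc1 was closest to Sept8, at 0.104, Runx1 to Skil, at 0.113, Cdh3 to Epha2, at 0.123, and Cd34 to Pmp22, at 0.136. The nearest genes of the other members had larger differences. These were Dsg2, a desmosomal cadherin, at 0.223 for Lgr5, Espn at 0.227 for Lgr6 and Rflna at 0.247 for Tbx1. The measure is not scaled to a member's own spread, which ran from 0.349 for Nfatc1 to 1.13 for Tbx1. It therefore does not rank closeness between members. None of these 9 nearest genes was itself a member.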

How the data were processed

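Per the file headers, the authors aligned to mm10 with TopHat and obtained gene RPKM with Partek. The submitters' processing notes name TopHat2 2.1.0 and bcl2fastq. The deposited sample sheet gives the count of alignments per library. The sources used here do not state the gene annotation, counting rule, strand use or the kit of each library, and therefore no batch was defined.

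Groups were taken from the sample records, and replicate numbers with them. One model of 4 groups was fitted to log2(RPKM + 0.5) of 13922 genes (RPKM of 1 or more in 3 or more of the 15 libraries), with limma 3.58.1 in R 4.3.3 (trended prior, 11 residual and 2.57 prior degrees of freedom, two-sided), and was tested on simulated data. Every adjusted p is limma's, by Benjamini-Hochberg over all genes tested within 1 of 8 comparisons, with a threshold of 0.05. Differences on this scale understate the change of low genes. No count model was used, since RPKM is not a count. Descriptions used Python 3.11.15 with pandas 2.3.3 and numpy 2.4.6.

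The 9 members and 22 gene lists were chosen with earlier results of these data known. All members were named, any gene of a partner list could be, and at most 3 of a marker list, those with the smallest adjusted p. Same-numbered libraries of sets A and B deviated from their group means together across genes, with correlations of 0.123 to 0.43 in all 4 pairs. In the other pairs of groups at least 1 correlation was not over 0.1. The main model held no replicate block, so its p-values for set B against set A leave this pairing out. A block was run only as an alternative. Alternatives were other pseudocounts, filters, scalings, library weights, a replicate block, only the groups compared, and each library left out.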

Additional observations from a re-analysis of the deposited data

Results flagged for a closer look

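In 27 groups of 4 libraries checked, 1 for each of the 9 genes in each group of 4, a single library stood apart in 2, where chance flags about 1 group in 20. Lgr6 in wounded set A replicate 4 was 3.16 RPKM, with a gap to the next library of 0.851 of the whole range, above Dixon's critical value. Runx1 in unwounded vehicle replicate 3 was 5.33 RPKM, below the other libraries, with a gap share of 0.857.

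The difference between wounded and unwounded skin was tested for dependence on treatment, by limma's test of the interaction. By the gene table's names 4 of the 9 genes passed, against 40% of all genes, so passing was about as common among the members. The interactions were -0.44 for Lgr4 (adjusted p 0.0395), 0.98 for Cd34 (adjusted p 0.00718), 0.90 for Nfatc1 (adjusted p 0.000348) and -1.002 for Cdh3 (adjusted p 0.00167). The Lgr4 call was lost when any of 10 libraries was left out. By the sample records all 9 genes passed, against 68.5% of all genes. The values were -4.27 for Tbx1 (adjusted p 6.26e-08), -2.40 for Cdh3 (adjusted p 2.27e-07), -1.88 for Lgr5 (adjusted p 0.000184), -1.87 for Foxc1 (adjusted p 3.75e-05), -1.85 for Lgr4 (adjusted p 2.90e-07) and -1.01 for Runx1 (adjusted p 3.64e-05). Those for Cd34, Lgr6 and Nfatc1 were 2.15 (adjusted p 4.58e-06), 1.69 (adjusted p 0.000407) and 1.02 (adjusted p 2.14e-05). Both sets of interactions share the unwounded difference and the same wounded libraries, so they are not independent of each other. Those by the records are minus the sum of the unwounded difference and the difference of set B from set A, so they follow from these. Those by the gene table's names are the difference of set B from set A minus the unwounded difference, so they add no further data either.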

How the results depend on the processing

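Every count of members called moved by at most 1.5 times under the alternatives run. With 1 library left out, the counts were 8 to 9 for tamoxifen against vehicle in unwounded skin, 7 to 8 for set B against set A, 6 to 9 for set A against unwounded vehicle skin, 3 to 6 for the interaction by the gene table's names and 9 in each case for that by the records. In the same order, the counts over all 13922 genes were 8884 to 10013, 3167 to 5103, 4621 to 5872, 4742 to 5907 and 9045 to 9870. Of 1711 values for single members, 1669 kept their direction and side of the threshold, 22 lost the call, 12 gained it and 8 changed sign, and for these the cause was not tested. The sign changes were all of values that did not pass. Cd34 in set B against unwounded tamoxifen skin was -0.0076 without tamoxifen replicate 4 and at most 0.18 with any other library left out, and Foxc1 in set B against unwounded vehicle skin was -0.00027 without set B replicate 4 and at most 0.17 otherwise. Runx1 in set A against unwounded tamoxifen skin was -0.018 with upper-quartile scaling, -0.042 with library weights, -0.095 without tamoxifen replicate 2, -0.077 without set A replicate 3 and at most 0.067 with any other library left out. The Lgr6 interaction by the gene table's names was 0.049 without tamoxifen replicate 2, 0.039 without set A replicate 4 and at the lowest -0.32, without tamoxifen replicate 4. With library weights 7041 genes of the whole table passed in set B against set A, against 4328. A filter of RPKM 5 left Lgr6 untested.

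With the replicate number as a block, 8 of the 9 members passed in set B against set A, also with only these sets in the model, an alternative added after the data were seen. Of all 13922 genes, 4510 passed with the block and 3686 with the block and only these sets, against 4328 in the main model. The block changed 1 member call, that of Lgr6 in set B against unwounded tamoxifen skin, which had an adjusted p of 0.0654. All member values lay above the floor of 3 reads, and the 3 or 4 libraries in a group limit the precision.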
